A study of Homo sapiens with 6 samples.

Results

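Transcript levels of 42 synaptic vesicle and exocytosis genes were examined in H1155 cells, a neuroendocrine large cell lung cancer line. The genes were chosen by name, from the families that build synaptic vesicles, release them and recover their membrane, and all 42 were found among the 58735 genes of the count table. Of these, 39 passed the filter on low counts and were tested, and RPH3A, SV2C and SYT9 did not. Poly-T–selected RNA was sequenced from libraries with the label WT (3) and GFI1-KO (3), all untreated and grown in the same serum-containing medium. GFI1 is a zinc finger transcription repressor best known from blood cell development, and the study deleted it to ask what it does in lung cancer cells that express it. The GFI1-KO cells were made with CRISPR/Cas9 and pairs of guides against the GFI1 promoter region and sorted as monoclonal GFP+ clones. The sources do not say how many clones the 3 libraries represent or that the libraries came from separate cultures, so the p-values measure the spread between these libraries only, and GFI1 loss and clonal differences cannot be told apart.

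Synaptic vesicles fuse with the plasma membrane when a vesicle SNARE protein zips together with plasma membrane SNAREs. Docking and priming factors prepare the vesicle, synaptotagmins sense calcium and trigger fusion, and NSF with its adaptors takes the spent SNARE complexes apart. RAB GTPases bring vesicles to their release sites, and clathrin adaptors recover the membrane afterwards. Neuroendocrine tumors use much of the same machinery to secrete hormone granules, and synaptophysin (SYP) is among the standard markers by which pathologists recognize them.

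Promoter sequences are shown for 7 members that the results below turn on or that carry a motif of interest, the 250 bases before and 50 bases after the annotated start, 5′ to 3′ on the strand of the gene. They are RefSeq sequences on GRCh38.p14, and 32 of the 42 members had an entry, with 52 promoters in all. Capitals mark matches on either strand to 2 motifs. AATCAC, read GTGATT on the opposite strand, holds the core bound by GFI1. TCAGCACC, read GGTGCTGA on the opposite strand, is from the left part of the element bound by REST, the repressor that silences neuronal genes in other tissues. In these promoters no match of one motif overlaps one of the other. CADPS and SYP are shown as the members with the largest decrease and with the highest level, and neither has a match.
CADPS (chr3:62875367-62875666, minus strand): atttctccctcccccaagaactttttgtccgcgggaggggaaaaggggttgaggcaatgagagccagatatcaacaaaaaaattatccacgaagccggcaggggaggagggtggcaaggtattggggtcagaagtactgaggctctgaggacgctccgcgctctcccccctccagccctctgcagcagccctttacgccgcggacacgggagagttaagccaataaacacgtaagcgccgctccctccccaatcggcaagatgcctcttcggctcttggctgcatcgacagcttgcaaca
SYP (chrX:49200144-49200443, minus strand): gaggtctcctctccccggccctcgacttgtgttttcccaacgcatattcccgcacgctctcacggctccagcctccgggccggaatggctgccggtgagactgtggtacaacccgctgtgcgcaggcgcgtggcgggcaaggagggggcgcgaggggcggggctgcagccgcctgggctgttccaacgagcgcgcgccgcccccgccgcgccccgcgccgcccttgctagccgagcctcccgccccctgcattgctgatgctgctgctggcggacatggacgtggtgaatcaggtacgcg
RAB27B (chr18:54717607-54717906, plus strand, the more upstream of 2 annotated starts, AATCAC at -120 from the start): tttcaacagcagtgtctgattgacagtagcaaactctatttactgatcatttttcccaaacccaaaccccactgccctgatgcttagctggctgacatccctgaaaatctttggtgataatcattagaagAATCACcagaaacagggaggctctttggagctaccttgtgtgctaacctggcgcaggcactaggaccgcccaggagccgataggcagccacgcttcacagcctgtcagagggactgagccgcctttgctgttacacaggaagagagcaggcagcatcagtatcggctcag
RAB3B (chr1:51990651-51990950, minus strand, AATCAC at -159): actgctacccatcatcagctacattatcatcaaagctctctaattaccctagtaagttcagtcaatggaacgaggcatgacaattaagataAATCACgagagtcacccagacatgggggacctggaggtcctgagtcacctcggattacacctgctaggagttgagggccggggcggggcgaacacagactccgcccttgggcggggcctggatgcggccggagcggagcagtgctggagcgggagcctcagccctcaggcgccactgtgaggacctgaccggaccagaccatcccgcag
SYT4 (chr18:43277441-43277740, minus strand, GGTGCTGA at -82 and AATCAC at 31): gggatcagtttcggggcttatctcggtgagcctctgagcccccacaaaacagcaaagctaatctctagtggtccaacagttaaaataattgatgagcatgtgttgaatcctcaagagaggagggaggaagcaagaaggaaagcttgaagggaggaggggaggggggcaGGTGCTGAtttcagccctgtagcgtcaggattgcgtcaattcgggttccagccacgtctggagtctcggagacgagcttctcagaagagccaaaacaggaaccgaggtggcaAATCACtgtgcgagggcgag
UNC13A (chr19:17688305-17688604, minus strand, GGTGCTGA at 7): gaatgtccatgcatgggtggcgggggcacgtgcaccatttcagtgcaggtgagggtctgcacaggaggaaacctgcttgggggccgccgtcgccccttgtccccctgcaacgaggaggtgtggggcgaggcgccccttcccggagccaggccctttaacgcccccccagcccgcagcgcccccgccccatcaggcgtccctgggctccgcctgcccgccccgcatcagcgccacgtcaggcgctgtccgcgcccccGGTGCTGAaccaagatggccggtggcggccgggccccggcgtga
SYN1 (chrX:47619808-47620107, minus strand, TCAGCACC at -232): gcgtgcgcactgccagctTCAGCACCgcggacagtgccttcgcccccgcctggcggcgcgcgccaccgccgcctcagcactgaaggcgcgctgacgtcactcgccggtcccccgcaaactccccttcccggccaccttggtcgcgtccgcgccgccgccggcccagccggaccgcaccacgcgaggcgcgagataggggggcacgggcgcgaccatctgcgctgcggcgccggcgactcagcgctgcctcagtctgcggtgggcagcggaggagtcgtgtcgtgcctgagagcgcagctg
AATCAC occurred in 10 of the 52 promoters (19.2%), those of RAB3B, SYT6, SV2A, SNAP91, UNC13B, RPH3A, SV2B, SYT4, RAB27B and SYT3, and in 3590 of all 35116 promoters of the same length (10.2%). TCAGCACC occurred in 8 of the 52 (15.4%), in SV2C, RPH3A, SV2B, SYT4, UNC13A, SYT3 and SYN1, and in 588 of all promoters (1.67%). The RPH3A promoters with this motif overlap, so that 1 site is counted in both. Of the 10 genes with AATCAC, 3 were higher and 3 lower under the GFI1-KO label, 3 did not pass the test and 1 was not tested. These calls must be read against all genes tested, of which 36.5% were higher and 35.9% lower. A match is a description of the letters only, as binding was not measured in these files.

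GFI1 itself had 157, 117 and 131 normalized counts under the WT label and 166, 178 and 160.0 under the GFI1-KO label. Its transcript was thus not lower under the knockout label, at 0.31 on the log2 scale (standard error 0.12, adjusted p = 0.0273 by the quasi-likelihood test of edgeR, Benjamini-Hochberg), which was -0.00 after the adjustment of counts to each gene's GC content and length (the GC and length correction). The adjusted p was 0.147 without WT replicate 2, 0.0633 without WT replicate 3 and 0.0927 without GFI1-KO replicate 2. The edit lay in the promoter region, and whether a functional protein was made was not measured here. All directions below therefore rest on the labels. They are given for the libraries labelled GFI1-KO relative to those labelled WT, adjusted p-values come from edgeR throughout, and normalized counts are counts scaled to a common effective library size. Library totals lay between 14882914 and 17692882 counts. The smallest level taken as detectable, 3 counts, corresponded to 0.17 to 0.202 CPM, and intervals and floors cover counting error only.

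The vesicle genes split into both directions. Of the 39 tested, 15 were higher, 17 were lower and 7 did not pass an adjusted p of 0.05. This share of 82.1% must be read against a background of 72.4% of all 17514 genes tested, of which 36.5% were higher and 35.9% lower. The median log2 fold change of the 39 was 0.04, near that of all genes, 0.00, and the values ran from -3.10 for CADPS to 2.55 for SYT6. The groups did not overlap in normalized counts for 32 of the 39 members (82.1%), as for 74.5% of all genes. Changes of at least 2-fold that passed the test were found for 9 members (23.1%), 5 higher and 4 lower, against 17.5% of all genes. With that correction, which fits the dependence of each library's counts on both properties and removes it, 12 members were higher and 21 lower, so that the higher genes made up 36.4% of the calls in place of 46.9%. Over all genes that share went the other way, from 50.4% of the calls without the correction to 54.5% with it, when 60.4% of genes passed, 32.9% higher and 27.5% lower. In whole cultures, fewer cells that express a gene and less RNA of it per cell cannot be told apart.

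**Figure D1:**
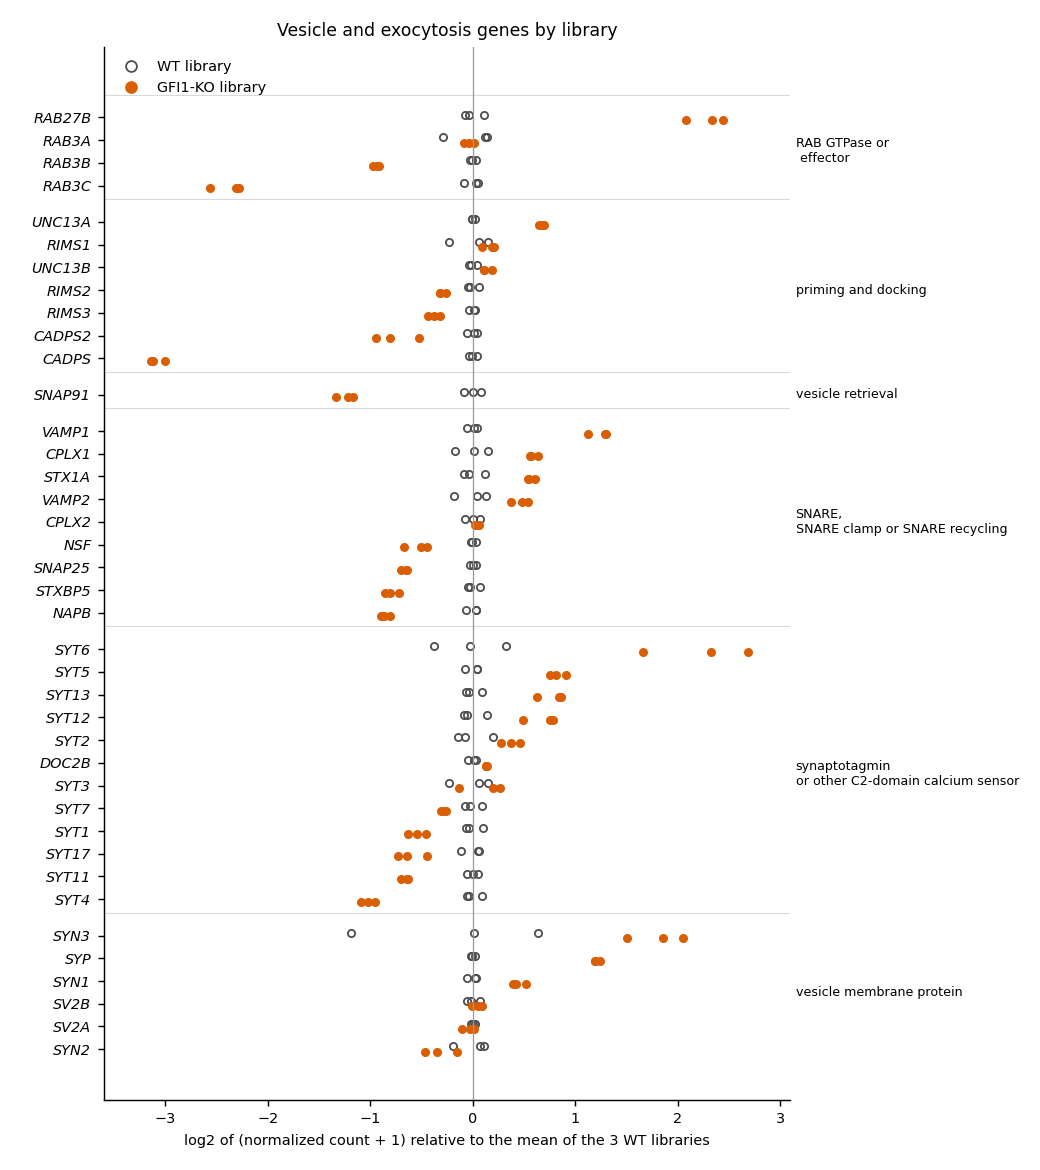
Log2 of the normalized count plus 1 in each of the 6 libraries, relative to the mean of the 3 libraries labelled WT (x axis), for the 39 members tested, grouped by role (y axis). Open circles are libraries labelled WT and filled circles libraries labelled GFI1-KO, and CADPS (-3.10) and RAB3C (-2.40) lie far to the left while SYT6 (2.55) and RAB27B (2.31) lie far to the right. The positions of SYN1, STX1A, CPLX1, CPLX2, RIMS2, SYT3 and DOC2B relative to WT change sign with the GC and length correction.

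Among the proteins of the vesicle membrane, SYP and SYN3 rose, and SV2A and SV2B did not pass the test. SYN1 rose only without the GC and length correction, and SYN2 fell in edgeR but did not pass in DESeq2. SYP (ENSG00000102003, chrX:49187804-49200259), a tetraspanning protein that binds the vesicle SNARE VAMP2, had 4282, 4173 and 4208 normalized counts under WT and 9630.4, 10009.6 and 9638 under GFI1-KO. Every library labelled GFI1-KO was above every library labelled WT, by 2.31-fold (log2 1.21, standard error 0.03, adjusted p = 3.0e-21). With the correction, the log2 fold change of SYP was 0.94 (adjusted p = 4.7e-18).

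The synapsins are phosphoproteins that tether vesicles into a reserve pool, and their 3 genes passed the test in different directions. SYN1 had 1244, 1231 and 1170.2 normalized counts under the WT label and 1600.0, 1629 and 1737 under the GFI1-KO label. The groups were apart by 0.45 on the log2 scale (standard error 0.05, adjusted p = 2.1e-09), but the sign turned to -0.06 with the GC and length correction (adjusted p = 0.253). The SYN1 count is also uncertain, as 23.3% of the 50-base words of its transcripts occur in an overlapping gene model (ENSG00000283743). SYN2 had 223, 229 and 186 normalized counts under WT and 191, 154 and 167 under GFI1-KO. One library labelled GFI1-KO lay above the lowest WT library, and the difference was -0.32 on the log2 scale (standard error 0.11, adjusted p = 0.0137). The adjusted p of SYN2 was 0.0505 without WT replicate 1, 0.0521 without WT replicate 2 and 0.0821 without GFI1-KO replicate 2. SYN2 also did not pass in DESeq2, with the same log2 fold change of -0.32. With the GC and length correction SYN2 was at -0.39 (adjusted p = 0.00414 from edgeR). SYN3 was near the limit of detection under WT, with 6, 9 and 2 counts, and had 20, 26 and 30 counts under GFI1-KO. The ratio of the summed levels was 3.95 (95% counting interval 2.31 to 7.14), and the log2 fold change was 1.97 (adjusted p = 1.6e-04).

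The SV2 proteins are transporter-like glycoproteins of the vesicle membrane, and SV2A is the binding site of the antiepileptic drug levetiracetam. SV2A had 3817, 3934 and 3875 normalized counts under WT and 3801, 3899 and 3607 under GFI1-KO. The groups overlapped, and the interval of the log2 fold change ran from -0.11 to 0.03 (adjusted p = 0.312). For SV2B, between 907 and 993 normalized counts under WT stood beside 941 to 1004 under GFI1-KO (log2 fold change 0.05, adjusted p = 0.448). Both passed the test with the correction, SV2A at -0.29 and SV2B at 0.32. SV2C was seen at 8, 12 and 12 counts under WT and at 1, 1 and 3 under GFI1-KO, a ratio of 0.138 (95% counting interval 0.042 to 0.357). It was tested only in a fit without the filter, where its log2 fold change was -2.74 (adjusted p = 3.3e-04).

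Of the 12 synaptotagmin genes, SYT5, SYT6, SYT12 and SYT13 were higher, SYT1, SYT4, SYT7, SYT11 and SYT17 were lower, SYT2 and SYT3 did not pass the test and SYT9 was not tested. Synaptotagmins are membrane-anchored proteins with paired C2 domains, and some bind calcium while others do not. SYT1, the fast calcium sensor of transmitter release, had 821, 926 and 838 normalized counts under WT and 628, 556 and 591 under GFI1-KO. All libraries labelled GFI1-KO were lower, by 1.46-fold (log2 -0.54, standard error 0.06, adjusted p = 1.9e-08), and the value with the correction was -0.06 (adjusted p = 0.387). SYT2, its close relative at fast synapses, had 46.1, 58.7 and 48.3 normalized counts under WT and 70.5, 66.3 and 62.1 under GFI1-KO (log2 fold change 0.38, adjusted p = 0.076). The SYT2 groups did not overlap, but the change did not pass the test, and its exons overlap those of PPP1R12B on the opposite strand over 2111 bases. SYT9, another fast sensor, had 7, 6 and 5 counts under WT and 0, 1 and 0 under GFI1-KO. With so few counts the ratio of 0.0491 had a 95% counting interval from 0.00118 to 0.311, and in the fit without the filter the log2 fold change was -3.87 (adjusted p = 0.00224).

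SYT4 and SYT11, which carry a substitution in their N-terminal C2 domain that impairs calcium binding, were both lower. The SYT4 values were 867, 853 and 944 normalized counts under WT and 435, 416 and 458 under GFI1-KO. That was a 2.04-fold decrease (log2 -1.03, standard error 0.06, adjusted p = 8.2e-14), and -0.60 with the correction. SYT11, the most abundant synaptotagmin transcript per length, had 2975, 3076 and 2861 normalized counts under WT and 1911, 1909 and 1829.6 under GFI1-KO. Its decrease was 1.58-fold (log2 -0.66, standard error 0.04, adjusted p = 2.8e-14), with no overlap between the groups. SYT7, a slow sensor with high calcium affinity, had 2335, 2529 and 2254 normalized counts under WT and 1919, 1979.8 and 1960.4 under GFI1-KO, a log2 fold change of -0.28 (adjusted p = 1.3e-06) that was -0.78 with the correction. SYT17, a C2 protein without the usual membrane-spanning anchor, had 211, 237 and 236 normalized counts under WT and 167, 137 and 146 under GFI1-KO (log2 fold change -0.60, adjusted p = 1.9e-05). All 4 of these genes kept their direction and their call with the correction.

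SYT5 had the most counts among the synaptotagmins that rose, with 331, 332 and 305 normalized counts under WT and 545, 568 and 608 under GFI1-KO. The groups were apart by 1.78-fold (log2 0.83, standard error 0.07, adjusted p = 9.4e-11), and by a log2 fold change of 0.39 with the correction. SYT13, which lacks the residues for calcium binding, had 159.7, 163 and 178 normalized counts under WT and 304, 299 and 258 under GFI1-KO. The increase of 0.78 on the log2 scale (standard error 0.10, adjusted p = 1.1e-07) was 0.76 with the correction. SYT12, another member that does not bind calcium, had 48.1, 41 and 42 normalized counts under WT and 61.9, 75.8 and 74.4 under GFI1-KO (log2 fold change 0.69, adjusted p = 0.00256), a call lost with the correction (0.33, adjusted p = 0.144). SYT6, known from exocytosis in sperm, was at 3, 2 and 4 counts under WT and at 27, 21 and 13 under GFI1-KO, a ratio of 5.99 (95% counting interval 2.96 to 13.7). SYT3, a calcium-binding member, had 203, 215 and 165 normalized counts under WT and 233, 223 and 177 under GFI1-KO. The SYT3 groups overlapped (log2 fold change 0.12, adjusted p = 0.359), and the sign turned with the correction, to -0.49 (adjusted p = 7.5e-04). DOC2B, a soluble calcium sensor with the same pair of C2 domains, had 637 ± 17.7 (SD, n = 3) normalized counts under WT and 699.7 ± 2.95 (SD, n = 3) under GFI1-KO. Its small log2 fold change of 0.13 (adjusted p = 0.0392) turned to -0.28 with the GC and length correction (adjusted p = 1.3e-04). The DOC2B call was lost without any 1 of the libraries except WT replicate 3, with adjusted p-values from 0.0648 to 0.157. The call was also lost in DESeq2.

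The SNARE genes and those that act on SNAREs also moved in both directions, 4 higher and 4 lower of 9 tested. With the GC and length correction, 1 of the 9 was higher and 6 were lower. Among all genes, 72.4% were called without the correction and 60.4% with it. VAMP1, a vesicle SNARE, had 221, 225 and 211 normalized counts under WT and 539, 538 and 477 under GFI1-KO. It rose 2.37-fold (log2 1.24, standard error 0.08, adjusted p = 2.4e-13), and by a log2 fold change of 1.02 with the correction. Its exons overlap those of TAPBPL on the opposite strand over 339 bases. VAMP2, the main vesicle SNARE of neurons, went from 600.2 ± 65.4 to 827 ± 48.2 normalized counts (SD, n = 3 each; log2 fold change 0.46, adjusted p = 1.2e-06), a call lost with the correction (0.08, adjusted p = 0.277). Of the 50-base words of the VAMP2 transcripts, 10.2% occur in another gene model.

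The plasma membrane SNAREs had opposite signs. STX1A, which encodes syntaxin 1A, had a log2 fold change of 0.57 (adjusted p = 8.9e-11), but -0.01 with the GC and length correction (adjusted p = 0.836). SNAP25, its partner, went from 1818 ± 37.6 to 1145 ± 23.4 normalized counts (SD, n = 3 each), a 1.59-fold decrease (log2 -0.67, standard error 0.04, adjusted p = 1.8e-13). With the correction the value for SNAP25 was -0.31 (adjusted p = 5.1e-07). The decrease in STXBP5, the tomosyn that competes with VAMP2 for SNARE assembly, depended on the correction for its size, -0.79 without it (adjusted p = 5.9e-15) and -0.09 with it (adjusted p = 0.0454).

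The complexins, which clamp and then promote the assembled SNARE complex, were CPLX1 and CPLX2. CPLX2 was among the most abundant members, with 5487, 5727 and 5177 normalized counts under WT and 5551, 5686 and 5662 under GFI1-KO. The groups overlapped, and the log2 fold change of 0.04 (adjusted p = 0.269) was -0.00 without WT replicate 3 and turned to -0.39 with the GC and length correction (adjusted p = 1.0e-10). CPLX1 likewise turned, from a log2 fold change of 0.59 (adjusted p = 1.7e-06) to -0.22 with the correction (adjusted p = 0.0264).

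The members that take SNARE complexes apart, NAPB and NSF, were lower. NAPB, a SNAP adaptor of NSF found mainly in neurons, had 3093, 3311 and 3321 normalized counts under WT and 1854, 1741 and 1779.7 under GFI1-KO. Each library labelled GFI1-KO lay below each WT library, by 1.81-fold (log2 -0.86, standard error 0.04, adjusted p = 2.1e-16), and by -0.44 on the log2 scale with the correction. NSF, the ATPase itself, had a log2 fold change of -0.54 (adjusted p = 1.5e-10), and -0.21 with the correction, and 13.4% of the 50-base words of its transcripts occur in other genes, among them its pseudogene NSFP1. NAPA, the widely expressed adaptor that is not a member, had a log2 fold change of 0.20 (adjusted p = 4.1e-04), which turned to -0.19 with the GC and length correction (adjusted p = 7.1e-04).

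Priming and docking genes included the largest change among the members with at least 100 normalized counts. CADPS (ENSG00000163618, chr3:62398346-62875389), a priming factor best known from dense-core granule release, had 1037, 1016 and 1071 normalized counts under WT and 129, 119 and 117 under GFI1-KO. The libraries labelled GFI1-KO were 8.56-fold lower (log2 -3.10, standard error 0.07, adjusted p = 3.0e-22), and -2.84 on the log2 scale with the correction. Leaving out any 1 library gave values from -3.14 to -3.06. CADPS2, its paralog, fell less, from 182 ± 6.65 to 108 ± 16.4 normalized counts (SD, n = 3 each; log2 -0.76, standard error 0.13, adjusted p = 7.8e-06). With the correction the value for CADPS2 was -0.36 (adjusted p = 0.018 from edgeR). Leaving out any 1 library gave CADPS2 values from -0.88 to -0.66 without the correction.

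UNC13A, the Munc13 protein that opens syntaxin for SNARE assembly, rose from 3176 ± 31.9 to 5059 ± 89.2 normalized counts (SD, n = 3 each; log2 fold change 0.67, standard error 0.03, adjusted p = 8.2e-16), and by 0.36 with the correction. Its promoter is the one above with the REST motif at 7. UNC13B, a paralog, rose by 0.13 (adjusted p = 0.00933), with adjusted p = 0.0605 without WT replicate 1 and 0.0513 without GFI1-KO replicate 1. The RIM genes, whose long forms are scaffolds of the release site, followed. RIMS3, which encodes a short form, went from 2237 ± 44.6 to 1720.4 ± 67.3 normalized counts (SD, n = 3 each; log2 -0.38, adjusted p = 3.8e-09, and -0.64 with the correction). RIMS2 was lower by a log2 fold change of -0.30 (adjusted p = 1.2e-06) but higher with the GC and length correction, at 0.17 (adjusted p = 0.00237), and RIMS1 did not pass the test (0.17, adjusted p = 0.277) except with the correction (0.35, adjusted p = 0.0294).

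Among the RAB genes, RAB27B rose while RAB3B and RAB3C fell. RAB27B, a GTPase that docks secretory granules and exosome-producing compartments, had 49.1, 44.3 and 43 normalized counts under WT and 251, 195 and 233 under GFI1-KO. It was 4.96-fold higher (log2 2.31, standard error 0.15, adjusted p = 1.5e-13), and 2.98 on the log2 scale with the correction. RAB3C had 276, 255 and 281 normalized counts under WT and 44.8, 55 and 53.6 under GFI1-KO. That is a 5.29-fold decrease (log2 -2.40, standard error 0.13, adjusted p = 5.1e-15), and -1.78 with the correction. RAB3B had 1189, 1146 and 1162 normalized counts under WT and 609.9, 617 and 593 under GFI1-KO. The groups overlapped for neither RAB3C nor RAB3B, and RAB3B was 1.92-fold lower (log2 -0.94, standard error 0.05, adjusted p = 1.3e-14). RAB3A, the main RAB3 protein of brain synapses, had 318, 323 and 239 normalized counts under WT and 295, 285 and 276 under GFI1-KO, a log2 difference of -0.04 (adjusted p = 0.726) that was 0.02 without WT replicate 1 or WT replicate 2 and -0.65 with the correction (adjusted p = 2.1e-06). RPH3A, which encodes the RAB3 effector rabphilin, was at most at 3 counts in any library, and no change could be detected at this depth.

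SNAP91, which encodes the clathrin assembly protein AP180 and so belongs to vesicle recovery, had 329, 371 and 351 normalized counts under WT and 155, 149.7 and 138 under GFI1-KO. The groups were apart by 2.37-fold (log2 -1.24, standard error 0.10, adjusted p = 6.9e-12), with -1.08 under the correction.

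Per transcript length, the members covered a wide range. In the libraries labelled WT, SYP had 49.1 ± 0.625 FPKM (reads per transcript length and library depth; SD, n = 3), SV2A 48.8 ± 0.754 and CPLX2 46.7 ± 2.35, which did not differ beyond their spread. They were followed by NAPB at 37.6 ± 1.51, SYT11 at 34.4 ± 1.24 and SNAP25 at 32.9 ± 0.695. Under the GFI1-KO label SYP stood alone at the top with 112 ± 2.5 FPKM, ahead of CPLX2 at 47.6 ± 0.643 and SV2A at 46.9 ± 1.83. The summed FPKM of all 42 members was 486, 499 and 481 under WT and 508, 513 and 503 under GFI1-KO, a ratio of 1.04 (p = 0.1 by an exact two-sided permutation test, which cannot go lower with 3 libraries a group). Without SYP, the sum went from 439 ± 9.93 to 396 ± 3.04 FPKM (SD, n = 3 each), a ratio of 0.9. As SYP rose by more than the sum did, leaving it out lowers the ratio by construction. These sums were not corrected for GC content. SYP alone took 10.1% ± 0.286 of the sum under WT and 22.1% ± 0.327 under GFI1-KO (SD, n = 3).

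Within families, the share of each member in the summed FPKM was compared, and where the groups did not overlap the exact two-sided permutation p was 0.1, the smallest possible. CADPS made up 71.2% ± 1.19 of the sum of CADPS and CADPS2 under WT and 33.0% ± 3.37 under GFI1-KO (SD, n = 3). By FPKM, CADPS2 was thus the larger of the pair in each library labelled GFI1-KO. That depends on the scaling to gene length. In normalized counts, CADPS had 122 ± 6.26 and CADPS2 108 ± 16.4 under GFI1-KO (SD, n = 3 each). RAB3A took 57.4% ± 4.37 of the RAB3 sum under WT and 74.9% ± 0.683 under GFI1-KO, as the shares of RAB3B and RAB3C went from 32.5% to 22.5% and from 10.1% to 2.53%. The change in the RAB3B share, -10 percentage points, was -3.08 when shares were taken from normalized counts. VAMP1 went from 25.1% to 36.4% of the VAMP1 and VAMP2 sum, and UNC13A from 79.3% to 84.7% of the UNC13 sum.

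Among the synaptotagmins, the shares of SYT4 and SYT11 together went from 51.7% ± 1.02 to 40.4% ± 0.0553 (SD, n = 3). That of SYT5 went from 4.07% to 9.49% and that of SYT13 from 2.08% to 4.67%. That of SYT7 went from 26.9% to 29.0%, without overlap of the groups. In the RIM family, RIMS1 went from 2.06% to 2.93%, also without overlap. RIMS2 had 26.1% and 26.9%, in overlapping groups (p = 0.4, exact permutation test). SV2A made up 91.3% of the SV2 sum under WT and 90.9% under GFI1-KO, likewise with overlap (p = 0.4, exact permutation test). Shares were not corrected for GC content.

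The direction of the members moved with the GC content of their transcripts. The 15 members called higher had a median GC content of 56.0% and the 17 called lower one of 43.3%. Over the 39 members, Spearman's rho of GC content and log2 fold change was 0.518, a description across genes from the same libraries, and it was 0.587 over the 17415 genes with a GC value. With the correction, rho over the members was 0.05. In all, 24 members passed the test in the same direction with and without it, 9 higher and 15 lower. Among them were all 10 with the largest changes at 100 or more normalized counts (CADPS, RAB3C, RAB27B, VAMP1, SNAP91, SYP, SYT4, RAB3B, NAPB and SYT5). Over all genes, 72.4% passed without the correction and 60.4% with it, and the share passing both in the same direction was not counted. CPLX1, RIMS2 and DOC2B passed in opposite directions, and SYN1, STX1A, CPLX2 and SYT3 changed sign without passing both times. Whether the dependence on GC content arose in the cells or in the making of the libraries was not tested.

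**Figure D2:**
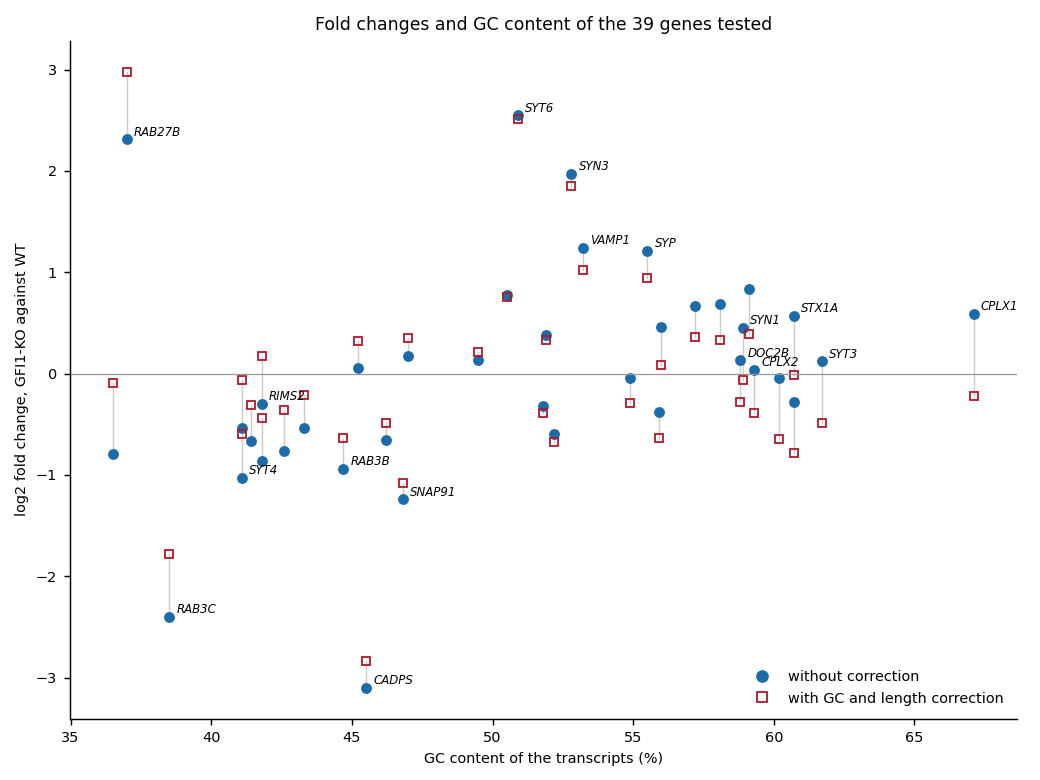
Log2 fold change, libraries labelled GFI1-KO against WT (y axis), by GC content of the transcripts in percent (x axis) for the 39 members tested, without (filled circles) and with (open squares) the GC and length correction. RAB27B at low GC content moves from 2.31 to 2.98 and CPLX1, with the highest GC content, from 0.59 to -0.22, and SYN1, STX1A, RIMS2, SYT3, CPLX2 and DOC2B also change sign.

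Other genes of the same pathway also moved in both directions, in shares to be read against the 72.4% called and the median of 0.00 over all genes. Of 46 further neuronal vesicle genes, 36 were tested, and 14 were higher and 15 lower, around a median of -0.00 (log2 fold change). By the naming rule, the largest increases in this list were those of RAB3IL1, an exchange factor for RAB3 (1.86), PPFIA3, a liprin scaffold (0.93), and AMPH, an endocytic adaptor (0.90). The largest decreases were those of NSG1, an endosomal protein of neurons (-1.81), SLC17A7, the vesicular glutamate transporter (-1.80), and SH3GL2, an endophilin (-1.40), each with the same direction after the correction. Of 36 counterparts used by most cell types for secretion, 34 were tested, 12 higher and 15 lower, around a median of -0.06. SYTL3, a RAB27 effector, had the largest increase by the naming rule, from 58 ± 11.3 to 308 ± 11.4 normalized counts (SD, n = 3 each). Its log2 fold change was 2.40 (adjusted p = 3.3e-15). Of the other SYTL genes, SYTL5 (2.78), SYTL1 (0.69) and SYTL4 (0.35) were higher and SYTL2 lower (-1.47, and -1.05 with the correction). SYTL1 did not pass with the correction (0.05, adjusted p = 0.696), and RAB27A turned from -0.27 to 0.20. SYTL2 and SYTL5 had means below 100 normalized counts, outside that rule. By the same rule, the next largest increases were those of the plasma membrane SNARE STX4 (0.94) and the synaptophysin relative SYPL1 (0.70). The largest decreases by that rule were those of VAMP4 (-0.80), the exocyst subunit EXOC5 (-0.74) and the SNAP adaptor NAPG (-0.61). VAMP4, EXOC5 and NAPG did not pass with the correction, with adjusted p-values of 0.122, 0.516 and 0.331. Under the correction, 11 of the other neuronal genes were higher and 14 lower (median -0.02), while the widely expressed genes turned to 13 higher and 8 lower (median 0.08), beside the 12 higher and 21 lower members (median -0.21).

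Markers of neuroendocrine lung cancer were detected in all libraries, with a summed FPKM of 803 to 815 under WT and 991 to 1005 under GFI1-KO over 11 genes, 6 higher and 5 lower. The summed markers of fibroblasts were 17.7 to 18.1 FPKM under WT and 12.6 to 13.0 under GFI1-KO (7 genes, 2 higher and 3 lower of 5 tested, DCN at 0), those of leukocytes 0.127 to 0.193 and 0.0724 to 0.207 (5 genes, none tested, CD3E at 0) and those of endothelium 3.53 to 3.97 and 1.76 to 1.99 (4 genes). COL1A2 made up most of the fibroblast sum, at 15.8 ± 0.275 FPKM under WT and 10.8 ± 0.232 under GFI1-KO (SD, n = 3 each). Other fibroblast markers moved apart, with COL3A1 at 2, 3 and 2 counts under WT and 129, 143 and 170 under GFI1-KO, PDGFRA at 1, 2 and 0 counts and 17, 16 and 14, and PDGFRB at 136, 128 and 135 counts and 17, 15 and 15. The part of these markers in the changes of the vesicle genes was not tested. REST, whose motif TCAGCACC stands in the promoters of SYN1, SYT4 and UNC13A above, had 215, 174 and 169 normalized counts under WT and 278, 264 and 264 under GFI1-KO, a log2 fold change of 0.53 (adjusted p = 4.7e-05) that was 1.07 with the correction (adjusted p = 1.9e-09). SRRM4, the splicing regulator that limits REST in neurons, had one of -0.36 (adjusted p = 4.9e-05). Of the 7 genes with that motif, UNC13A was higher, SYN1 was higher only without the GC and length correction, SYT4 was lower, SYT3 and SV2B did not pass the test and RPH3A and SV2C were not tested. Of all genes tested, 72.4% were called. Dependence of the genes with this motif on REST was not tested.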

How the data were processed

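RNA-Seq of H1155 cells was analysed in both groups, 3 libraries with the label WT and 3 with GFI1-KO. The authors deposited raw counts per gene and library, without normalization or pooling, with each gene's length, start and end in bases, other values that come from their annotation. Per the paper's methods the reads were aligned with Hisat2 to GRCh38/hg38 and counted with featureCounts, while the submitters' processing notes name Bowtie2 and HTSeq for hg38. The annotation, the strand setting and the rule for reads matching several places are not given in the sources used here, so reads of overlapping or near-identical genes could be split differently from the named gene.

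The members, gene lists and tests were chosen with earlier results of these data known. Counts were compared in edgeR 4.0.16 (R 4.3.3) after TMM scaling and filterByExpr, by quasi-likelihood F tests adjusted over 17514 genes (Benjamini-Hochberg), calls being made at an adjusted p of at most 0.05 with no fold minimum. The standard error of a log2 fold change is its size over the root of F. FPKM was computed from the counts, the deposited gene length and the library total. The GC and length correction used offsets from natural splines with 5 degrees of freedom per library. They were fitted over the 17415 genes that passed the filter and had a GC value. GC content came from GENCODE transcripts, found for 58207 genes of the table, and length was the deposited gene length. Counts of low members were compared by their ratio with an exact 95% interval, which covers counting error only, since counts are not independent molecules where PCR copied them. Library totals of 14882914 to 17692882 put the floor of 3 counts at 0.17 to 0.202 CPM. Replicates differed beyond sampling noise (chi-square per degree of freedom 1.819 to 4.14). Values per library are given for GFI1, the 10 members with the largest changes at a mean of 100 or more normalized counts that passed the test, the 5 with the highest FPKM and all members of families with calls in both directions, and of other lists the 3 largest changes in each direction by the same minimum. Other members were described by means, ranges and fitted values. Values per library for RAB3A, SV2C, REST and the fibroblast markers fall outside this rule and were chosen after they were seen. The same holds for the values of NAPA, SRRM4, RAB27A and the SYTL genes other than SYTL3.

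The libraries were not paired. Alternatives were DESeq2 1.42.0, other scalings and filters, the replicate number as a block, the GC and length correction, a stricter threshold, shares from normalized counts and each library left out. The fits were tested on simulated data. Python 3.11.15, pandas 2.3.3, numpy 2.4.6, scipy 1.17.1 and matplotlib 3.10.9 served for tables and figures.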

Additional observations from a re-analysis of the deposited data

How the results depend on the processing

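Over the alternatives run, the number of members called higher lay between 12 and 15 and that called lower between 16 and 21, within 1.5 times of the reported counts. The median log2 fold change of the members was -0.04 with at least 10 counts in every sample, -0.21 with the GC and length correction and -0.21 with that correction and the replicate block. GFI1 kept a log2 fold change of 0.31 at the stricter threshold of 0.01 and in DESeq2 and of 0.27 with upper-quartile factors without passing the test, was at -0.00 with the correction and 0.00 with the correction and block, and ranged from 0.21 to 0.43 with 1 library left out. Signs turned with the correction, alone or with the block, for SYN1 (-0.06 and -0.06), SYT3 (-0.49 and -0.49), STX1A (-0.01 and -0.01), RIMS2 (0.17 and 0.17), CPLX1 (-0.22 and -0.22), CPLX2 (-0.39 and -0.39) and DOC2B (-0.28 and -0.28). With 1 library left out, RAB3A ranged from -0.18 (without WT replicate 3) to 0.02 (without WT replicate 1 or 2) and CPLX2 from -0.00 (without WT replicate 3) to 0.07. The cause of these changes was not tested, and GC content was not corrected without length. Taken from normalized counts, 15 of 32 family shares moved beyond the replicate SD and none changed sign. Those of RAB3B (-3.08 percentage points against -10), CPLX1 and CPLX2 (1.8 and -1.8 against 4.39 and -4.39), SYT12 and SV2C moved by over 1.5 times. Counts of a few reads limit SYT6, SYN3, SYT9, SV2C and RPH3A.

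The replicate numbers are shared by label only. Deviations of same-numbered libraries correlated with r of -0.00617, 0.0134 and 0.0213 over 11859 genes, and other pairs with -0.0502 to 0.0439, so that not every library correlated best with its own number. With the number as a block, 14 members were higher and 17 lower (12573 calls over all genes against 12680), and DOC2B was lost (0.13, adjusted p = 0.0516 from edgeR). With the block and the correction 12 were higher and 20 lower, and STXBP5 was lost (-0.09, adjusted p = 0.0587 from edgeR).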
